A study of Mus musculus with 2 samples.

Results

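The genes described are 5 long neuronal adhesion genes: the neurexins Nrxn2 and Nrxn3 and the autosomal teneurins Tenm2, Tenm3 and Tenm4. They were chosen by name, with earlier results of these data known. Each matched 1 protein-coding gene record of the 21755 on chromosomes 1 to 19 and X. The deposited list holds 8058 boundaries, and 13 of them lay at the start, in the body or at the 3' end of a member. The map comes from in situ Hi-C, which ligates restriction fragments held near each other in fixed nuclei and so counts contacts, on mature olfactory sensory neurons. Per the labels, the neurons came by FACS from adult OMP-GFP mice, from the olfactory epithelium, of strain 129P2/OlaHsd and mixed sex. OMP-GFP marks cells through the olfactory marker protein gene, so the group holds mature neurons of all receptor types together. There was 1 group with 2 biological replicates, of 3000000 and 1500000 cells, which the labels describe as untreated, fixed in 1% formaldehyde and cut with DpnII. Both replicates were pooled by the authors into a single map before boundaries were called, which leaves no spread between replicates for any value, and no difference was tested. Contact depth is unknown here. The list holds no expression values, so the labelled cell type was not checked against marker genes.

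Neurexins are presynaptic membrane proteins that bind neuroligins, LRRTM proteins and secreted cerebellins across the synaptic cleft. Their genes make long alpha forms from an upstream promoter and short beta forms from an internal promoter, and are spliced in many ways. Teneurins are large single-pass membrane proteins that bind each other and the latrophilin receptors (Adgrl genes). They take part in the matching of axons with their target cells, among others in the olfactory circuit of flies.

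A boundary is a 5 kb bin across which few contacts pass, and a domain is the stretch between adjacent boundaries, measured from bin midpoint to bin midpoint. Strength is the authors' boundary score, which has no stated scale. Over the list its median was 0.509 and its highest value 4.32. The class Weak reached up to a strength of 0.5 and the class Strong lay above it, and 50.8% of the list was Strong. A boundary was at a gene's start or 3' end when its bin was at most 20 kb from the bin of that end, and in the body when it lay inside the gene record and farther than that from both ends. Positions are percentages of the gene record counted from its start in the direction of transcription.

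All 5 genes had a boundary inside the body, 1 had one at the start and 2 had one at the 3' end, shares to be read beside those of other genes of their length. The bodies held 10 boundaries, 4 of them Strong and 6 Weak, while 43.5% of the body boundaries of coding genes of 100 kb or more were Strong and 35.3% of those in genes of 500 kb or more. Nrxn2 had 1, Nrxn3 3, Tenm2 3, Tenm3 1 and Tenm4 2. Of all coding genes of 100 kb or more, 2489 in number, 30.7% had at least 1 body boundary, and of the 230 genes of 500 kb or more 86.5% did. Nrxn3, Tenm2, Tenm3 and Tenm4 belong to the longer class, a class in which most genes had a body boundary. A Strong body boundary was present in Nrxn3, Tenm2, Tenm3 and Tenm4 but not in Nrxn2, against 45.7% of genes of 500 kb or more and 15.9% of those of 100 kb or more. At least 3 body boundaries, as in Nrxn3 and Tenm2, were found in 21.3% of genes of 500 kb or more and in 2.01% of those of 100 kb or more. Of the 10 bins, 8 overlapped no exon of their gene, against 72.0% in genes of 100 kb or more and 89.4% in genes of 500 kb or more. At the start, Tenm2 was the 1 member of 5 with a boundary, against 21.2% of all coding genes and 19.8% of those of 100 kb or more (21.3% of those of 500 kb or more). At the 3' end, Tenm2 and Tenm4 had a boundary, 2 of 5, against 22.2% of all coding genes and 27.8% and 21.7% of those of at least 100 and 500 kb. Both were Strong, and a Strong one was the nearest in 3056 of the 21755 coding genes and in 17.2% and 14.3% of the longer classes.

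**Figure D1:**
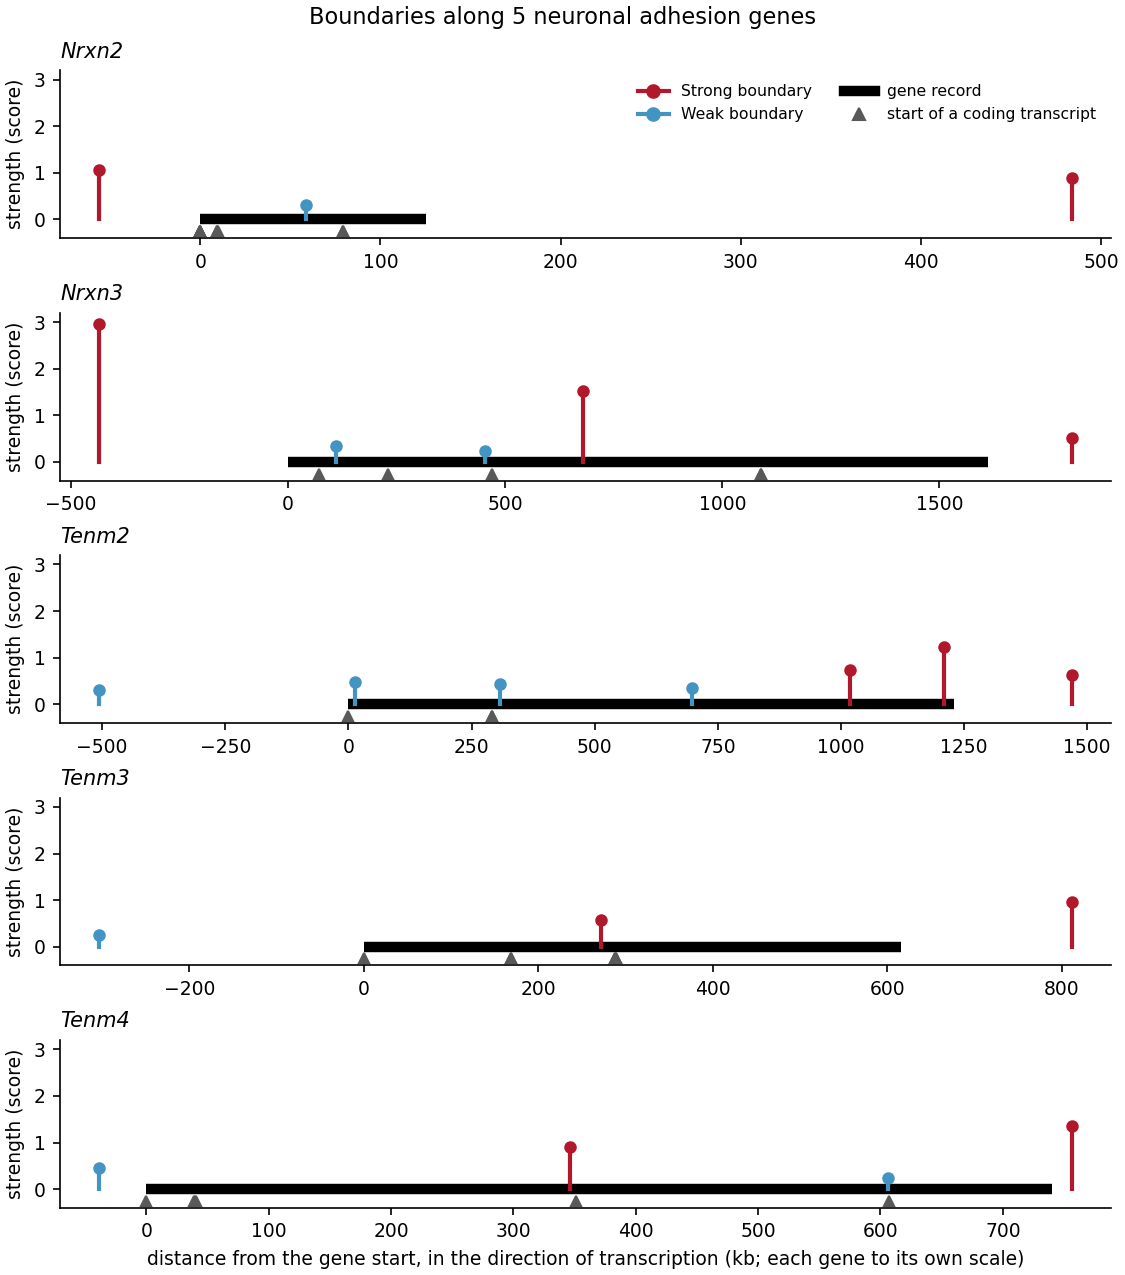
Boundaries along the 5 genes. The x axis is the distance from the gene start in kb, each gene to its own scale, and the height of each stick is the authors' strength; red sticks are Strong and blue sticks Weak boundaries, the black bar is the gene record and triangles mark starts of protein-coding transcripts. Each gene carries a boundary between 40 and 60% of its record, a range chosen after the positions were seen. Such a boundary was found in 37.0% of coding genes of 500 kb or more and in 9.12% of those of 100 kb or more. Along the longest coding transcript, 3 of the 5 remained in that range. The outermost sticks are the nearest boundaries outside the record, of which that before Nrxn3 reaches 2.96.

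Nrxn2, on chromosome 19 from 6418731 to 6544169 (GRCm38, plus strand), is the shortest member at 125 kb. Its body held a single Weak boundary of strength 0.317 at chr19:6475001-6480000, at 46.9% of the record. The bin overlapped no exon and lay in intron 8 of 21 of the transcript with the longest coding sequence, Nrxn2-208, an intron of 7.35 kb. Of the 5130 coding bases of that transcript, 35.05% lay before this boundary. In the domain before the boundary started 7 coding transcripts, 6 long ones of 4509 to 5130 coding bases and Nrxn2-209, whose 5' end is marked as incomplete. Nrxn2-202 and Nrxn2-203, short coding transcripts with 1980 and 1059 coding bases, started in the domain after it, with their start bin 20 kb from the boundary bin. The 6 long transcripts and these 2 short ones thus started in different domains, on either side of a boundary that 5758 others of the list exceeded in strength. The starts of Nrxn2-208, Nrxn2-209 and Nrxn2-216 lay inside an internal exon of 5 other annotated transcripts. Those of the other long transcripts and of the 2 short ones lay in no such exon.

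The first Nrxn2 domain measured 115 kb and was among the small ones, since 7645 of 7997 spacings were larger. It began at a Strong boundary of 1.06, 55 kb before the gene, in the same bin as the start of Sf1, a splicing factor gene. The starts of Sf1, of Rasgrp2, a guanine nucleotide exchange factor gene, and of Pygm, the muscle glycogen phosphorylase gene, lay in that domain beside the Nrxn2 start. The second domain, of 425 kb, ended at a Strong boundary of 0.885 and included 125710 undetermined bases, so its size is uncertain. It held the start of Slc22a12, a urate transporter gene that lies on the opposite strand inside the Nrxn2 record.

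Nrxn3, on chromosome 12 from 88722876 to 90334935 (plus strand, 1612 kb), is the longest member and carried the strongest body boundary of the 5 genes. Its body boundaries had strengths of 0.340 at 6.80%, 0.234 at 28.2% and 1.52 at 42.2% of the record. The first of these, at chr12:88830001-88835000, overlapped a coding exon. The second, at chr12:89175001-89180000, and the Strong one, at chr12:89400001-89405000, overlapped introns only. The Strong boundary lay in intron 9 of 19 of Nrxn3-205, an intron of 148.5 kb, and 716 of the 8058 boundaries were stronger. It divided the 4713 coding bases of Nrxn3-205 nearly evenly, with 48.3% before it. No transcript start of the gene lay near it, the nearest being 210 kb away.

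Beyond the Strong boundary, no further boundary was called in the remaining 932.4 kb of Nrxn3. The domain that holds this stretch measured 1125 kb up to a Strong boundary of 0.516 outside the gene, and 43 of 7997 spacings in the map were larger. It held 57.8% of the Nrxn3 record and 51.7% of its coding bases, and no start of another coding gene. The other domains that Nrxn3 crosses measured 545, 345 and 225 kb. The nearest boundary before the gene, 435 kb from its start, had a strength of 2.96, which 16 boundaries of the list exceeded. Its nearest coding start was that of Gm5662, 15 kb away.

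The annotated coding starts of Nrxn3 fell into all 4 of these domains. Nrxn3-205 started at 88794504 in the first, Nrxn3-201 at 88953399 in the second, Nrxn3-210 at 89193106 in the third, and the short transcripts Nrxn3-202 and Nrxn3-203 both at 89812483 in the last. The start of Nrxn3-205 lay inside an internal exon of 5 other annotated transcripts, and so did that of Nrxn3-210, whereas the other starts lay in no such exon. Those other coding starts lay in the second and the last domain only. RefSeq's promoter windows (GRCm38.p6) cover 3 of these starts, and their 250 bases upstream of the start are shown because each belongs to a different domain. They are written 5' to 3' on the plus strand, with CpG dinucleotides in capitals.
Nrxn3 first domain, chr12:88794254-88794503: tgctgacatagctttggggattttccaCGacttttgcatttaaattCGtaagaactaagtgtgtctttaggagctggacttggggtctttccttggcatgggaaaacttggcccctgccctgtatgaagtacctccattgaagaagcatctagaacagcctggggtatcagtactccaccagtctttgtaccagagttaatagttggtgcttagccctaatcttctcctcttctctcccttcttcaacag
Nrxn3 second domain, chr12:88953140-88953389: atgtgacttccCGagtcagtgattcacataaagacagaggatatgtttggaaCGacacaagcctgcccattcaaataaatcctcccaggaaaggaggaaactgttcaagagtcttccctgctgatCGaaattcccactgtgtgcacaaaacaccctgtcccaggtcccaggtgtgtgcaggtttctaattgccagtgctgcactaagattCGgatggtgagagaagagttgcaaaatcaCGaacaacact
Nrxn3 last domain, chr12:89812233-89812482: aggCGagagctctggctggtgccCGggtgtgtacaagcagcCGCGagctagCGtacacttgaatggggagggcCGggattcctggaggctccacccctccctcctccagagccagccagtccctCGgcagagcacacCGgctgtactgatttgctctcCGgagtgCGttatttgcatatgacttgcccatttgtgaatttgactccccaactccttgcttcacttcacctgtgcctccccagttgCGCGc
The windows held 2, 5 and 12 CpG dinucleotides, against a median of 6 over the 32851 promoter windows of that table. The first belongs to the start of Nrxn3-205 inside an internal exon of other transcripts. Whether any of these windows acts as a promoter was not tested. The last window, that of the short transcripts, had a GC content of 60% against 45.6% and 46.8% in the others. None of the 3 held the letters GGGCGG (a GC box, sought on both strands), which 32.7% of all windows held.

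Tenm2, on chromosome 11 from 36006656 to 37235964 (minus strand, 1229 kb), carried the most boundaries of the members, 5 in all. From its start to its 3' end their strengths were 0.474, 0.429, 0.344, 0.734 and 1.24, at 1.095, 25.1, 56.8, 82.8 and 98.3% of the record. The 3 nearest the start were Weak and the last 2 Strong. The first lay 15 kb inside the start bin of the record and overlapped no exon. The second, at chr11:36925001-36930000, lay 15 kb from the common start of Tenm2-201 and Tenm2-208, which encode teneurin proteins as long as that of Tenm2-202 (8295 and 8292 coding bases against 8292). Tenm2-202 began in the domain before the first boundary, and Tenm2-201 and Tenm2-208 in the next. The RefSeq start of Tenm2 lay close by, also 15 kb from the Weak boundary of 0.429, and the 250 bases before it are shown as the coding start nearest to a Tenm2 body boundary. The start of Tenm2-201 and Tenm2-208 lay inside an internal exon of 1 other annotated transcript.
Tenm2, chr11:36944242-36944491, minus strand: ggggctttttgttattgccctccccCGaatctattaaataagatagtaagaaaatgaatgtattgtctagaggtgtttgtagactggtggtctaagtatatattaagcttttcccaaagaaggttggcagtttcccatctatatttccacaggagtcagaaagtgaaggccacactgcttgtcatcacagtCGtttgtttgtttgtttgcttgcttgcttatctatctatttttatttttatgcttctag
It held 2 CpG dinucleotides and had a GC content of 37.2%, against a median of 52.4% over all windows. Whether it acts as a promoter was not tested.

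The coding sequence of Tenm2 was concentrated in its last domains. The first 4 domains of the gene, of 520, 295, 390 and 320 kb, held 15.8% of the coding bases of Tenm2-201, while they covered most of the record. The fifth, of 190 kb between the 2 Strong boundaries, held 50.4% and the sixth 33.8%. The boundary of 1.24, at chr11:36025001-36030000, overlapped a coding exon and lay 20 kb before the 3' end of the record. The sixth domain, of 260 kb, reached to a Strong boundary of 0.625 in the start bin of Pank3, a pantothenate kinase gene. It also held the starts of Wwc1, a Hippo pathway gene known as KIBRA, Fbll1 and Rars. The 3' coding exons of Tenm2 therefore lay in 1 domain with these neighbouring genes, while the other domains of Tenm2 held no other coding start.

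Tenm3, on chromosome 8 from 48227682 to 48843951 (minus strand, 616 kb), had 1 boundary in the record and none near either end. It lay at chr8:48570001-48575000, at 44.0% of the record, with a strength of 0.563 not far above the limit of the Strong class. The bin lay in intron 2 of 28 of Tenm3-201, an intron of 229 kb. Of the 8145 coding bases, 93.7% lay after the boundary. Both full-length transcripts, Tenm3-201 and Tenm3-206, started in the domain before it, and the 4 short coding transcripts Tenm3-202, Tenm3-203, Tenm3-204 and Tenm3-208 started 15 kb beyond it. The starts of Tenm3-201 and Tenm3-206 lay inside an internal exon of 1 other annotated transcript. The domains on either side of the boundary measured 575 and 540 kb, larger than most spacings of the map, whose median was 260 kb. The Strong boundary after the gene, of 0.970 and 195 kb from its 3' end, lay 40 kb from the start of Wwc2, a paralog of the Wwc1 gene that borders Tenm2.

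Tenm4, on chromosome 7 from 96171246 to 96911093 (plus strand, 739.8 kb), had a Strong boundary in the middle and another just beyond its 3' end. The body boundaries had strengths of 0.907 at 46.8% and 0.247 at 81.9% of the record. The Strong one, at chr7:96515001-96520000, lay in intron 3 of 32 of Tenm4-202, and 10 of 8499 coding bases came before it. Its bin was 5 kb from the start of Tenm4-205, a short coding transcript with 375 coding bases. The Weak one, at chr7:96775001-96780000, overlapped a coding exon and held the start of Tenm4-210, whose 5' end GENCODE marks as incomplete. The boundary beyond the 3' end, at chr7:96925001-96930000, had a strength of 1.36, which 954 boundaries exceeded, and lay 25 kb from the start of Nars2, a mitochondrial asparaginyl-tRNA synthetase gene. The nearest boundary before the gene was Weak, 0.449, and lay 40 kb from its start. Domain sizes fell from 385 kb over 260 kb to 150 kb along the gene, and the last of these held 74.5% of the coding bases in 18.1% of the record. None of the 3 domains held the start of another coding gene.

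The members together crossed 17 domains of 115 to 1125 kb with a median of 345 kb. No start of another coding gene lay in 12 of the 17. Several of these lay wholly inside a member record, where only a nested gene could add a start. The share over all domains of the map is not given here, so the count is no trait of these genes. In the teneurins the coding sequence lay late in the record. The midpoint of the coding bases was at 96.5% of the record in Tenm2, 92.0% in Tenm3 and 94.2% in Tenm4. In Nrxn2 and Nrxn3 it was at 57.3% and 48.4%. Over the other 226 coding genes of 500 kb or more the median was 80.8% (interquartile range 57.9 to 91.5%). Nrxn2 is shorter than that class. Over the other 2484 coding genes of 100 kb or more the median was 74.4% (54.9 to 86.9%). The boundary nearest the gene's middle left at most 6.27% of coding bases before it in all 3 teneurins, against 35.05% in Nrxn2 and 48.3% in Nrxn3.

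**Figure D2:**
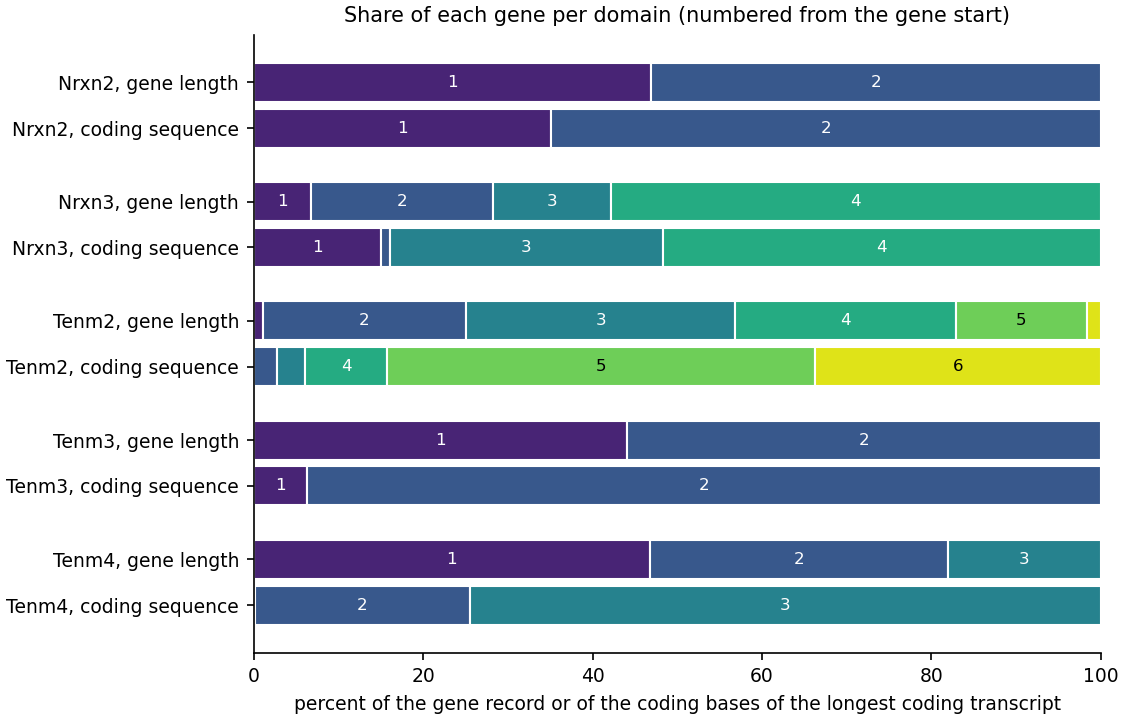
Share of each gene in each of the domains it crosses, numbered from the gene start. The x axis is percent, of the gene record in the upper bar of each pair and of the coding bases of the transcript with the longest coding sequence in the lower bar; colours and numbers mark the domains. The last domain of Tenm4 holds 18.1% of the record and 74.5% of the coding bases, while both bars of the last Nrxn3 domain are similar, at 57.8 and 51.7%.

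Per length, the members were not far from other long genes. Their bodies held 10 boundaries in 4.095 Mb, or 2.44 per Mb, against 2.14 per Mb in the other coding genes of 500 kb or more, 1.90 in all other coding genes of 100 kb or more and 3.15 per determined Mb in the genome. The density was 1.75 per Mb in Tenm3, 1.92 in Nrxn3, 2.53 in Tenm2 and 2.88 in Tenm4. These neighbours in the order rest on 1 to 3 boundaries each and no spread can be given for them. Nrxn2 had 12.5 per Mb, which is 1 boundary in a body of 80 kb. Among the 2488 other coding genes of 100 kb or more, 71.2% had a lower density than Tenm3 and 97.2% a lower one than Nrxn2, with the other members between. These shares are high in part because most genes of that class had no body boundary at all (median density 0). Among genes of 500 kb or more, 34.5% had a lower density than Tenm3, 45.4% than Nrxn3, 72.5% than Tenm2 and 76.9% than Tenm4. The median strength of the 10 body boundaries was 0.387, against 0.426 over the 982 body boundaries of other coding genes of 100 kb or more and 0.509 over the list.

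**Figure D3:**
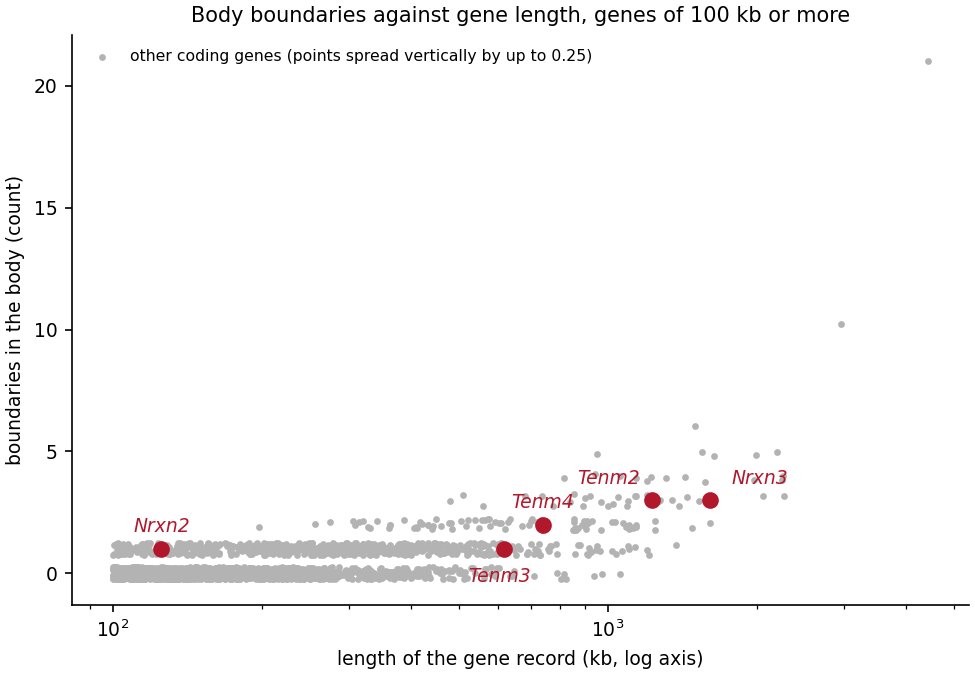
Number of body boundaries against gene length for coding genes of 100 kb or more. The x axis is the length of the gene record in kb on a log scale and the y axis the count of boundaries in the body; red points are the members and grey points all other genes, spread vertically so that they do not hide each other. The members, with 1 to 3 boundaries, lie within the cloud of genes of their length.

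Each member had a boundary between 40 and 60% of its record, a range that was chosen after the positions were seen. The positions were 42.2% in Nrxn3, 44.0% in Tenm3, 46.8% in Tenm4, 46.9% in Nrxn2 and 56.8% in Tenm2. They were Strong in Nrxn3, Tenm3 and Tenm4 and Weak in Nrxn2 and Tenm2. A boundary in that range was found in 37.0% of coding genes of 500 kb or more and in 9.12% of those of 100 kb or more, and a Strong one in 9.57% and 3.50%. The position depends on which start is used. Along the transcript with the longest coding sequence the same boundaries lay at 39.5% in Nrxn3, 22.9% in Tenm3, 43.9% in Tenm4, 47.1% in Nrxn2 and 43.4% in Tenm2, so that 3 of 5 remained in the range, against 29.1% of genes of 500 kb or more and 199 of the 2489 genes of 100 kb or more. Tenm3 moved most because the first 27.5% of its record belongs to a single short transcript, Tenm3-207. The teneurin gene on X, Tenm1, had Weak body boundaries of 0.285 and 0.242 at 25.1 and 72.9% and none in that range.

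**Figure D4:**
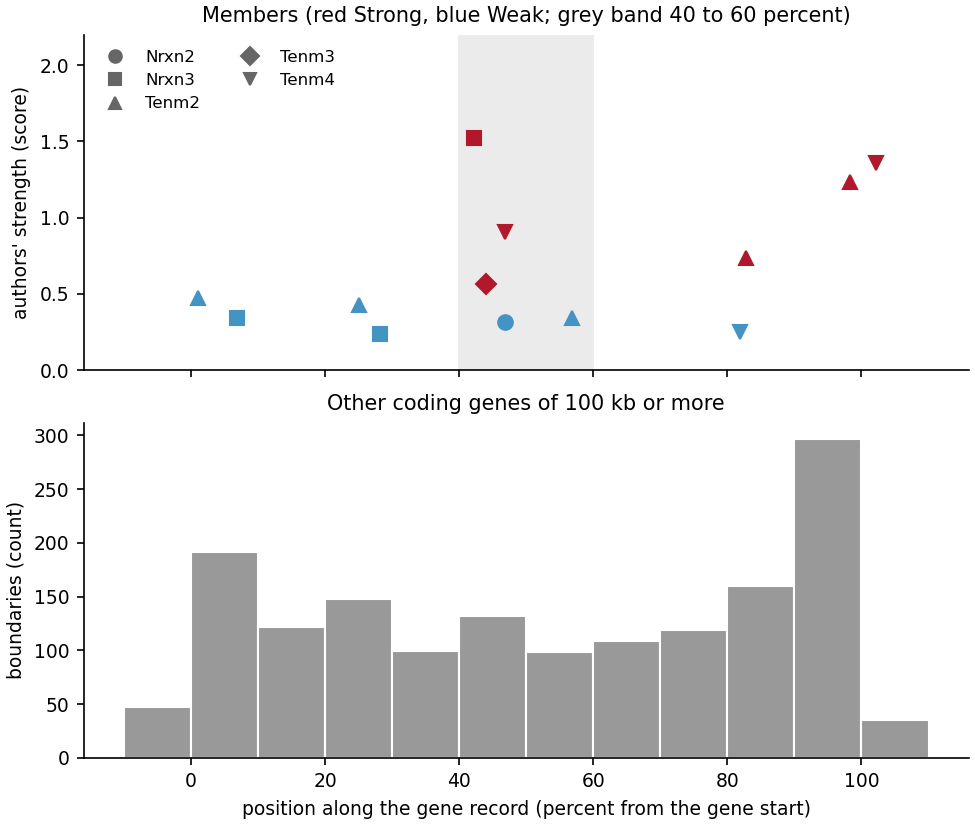
Positions of boundaries along the genes. The x axis is the position in percent of the gene record from its start; the upper panel gives the authors' strength of each member boundary (marker shape by gene, red Strong, blue Weak) and the lower panel the count of boundaries in other coding genes of 100 kb or more in steps of 10%. In other genes the tallest bar, 297 boundaries, is at 90 to 100%. The bars count boundaries, not genes, and include those at gene ends. Each member has a point in the grey band from 40 to 60%, chosen after the positions were seen. Nrxn3, Tenm2 and Tenm4 also have points outside it. Of coding genes of 500 kb or more, 37.0% had a boundary in that band.

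Several body boundaries lay near starts of transcripts inside the genes. Of the 10, 6 were within 20 kb of an annotated start of their own gene, against 29.0% of the body boundaries in coding genes of 100 kb or more and 15.8% in those of 500 kb or more. Of the 819 body bins of the members, 156 lay that near such a start. The 6 were the Nrxn2 boundary (5 kb from a non-coding transcript and 20 kb from the short coding ones), the Nrxn3 boundary of 0.234, the Tenm2 boundary of 0.429, the Tenm3 boundary, and both Tenm4 boundaries. All 6 were also within 20 kb of a protein-coding start, against 17.1% and 11.4% for the same length classes. Leaving out transcripts with an incomplete 5' end, an alternative chosen after seeing the data, left 5 of 10, against 26.5% and 13.8%, or 11.9% and 9.38% with coding starts only. Within 10 kb there were 3, in Nrxn2 and Tenm4. Of the starts behind the 6, those of Nrxn3-210 and Tenm2-201 lay inside an internal exon of other transcripts, as did that of Tenm4-210 with its incomplete 5' end. The strongest body boundary of the members, that of Nrxn3, was not among them.

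CTCF, a DNA-binding protein known for its place at domain borders, has a core consensus of 14 bases, and exact matches to it were sought on both strands of GRCm38. The 5 gene records held 6 exact matches in all: 3 in Nrxn3, 1 each in Tenm2, Tenm3 and Tenm4, and 0 in Nrxn2. That is 1.86 per Mb in Nrxn3, 1.62 in Tenm3, 1.35 in Tenm4 and 0.813 in Tenm2, against 2.56 per Mb in the genome. Of the 10 body boundaries, 1 had an exact match within 20 kb, the Tenm2 boundary of 0.344, against 21.9% of all boundaries and 10.1% of all fully determined bins. The Strong body boundaries had none. At the 3' end of Tenm4, the boundary of 1.36 had 2. The boundaries that flank Nrxn2 and Nrxn3 upstream and Tenm3 downstream had 1 each. These 6 sites near boundaries, of which the Tenm2 one alone lies inside a member record, are shown with 8 bases on either side. They are written in the 5' to 3' direction of the motif, with the core in capitals.
Nrxn2 upstream, chr19:6373961-6373974, plus strand: caatgttgCCACCAGGGGGCGCaggcgcgg
Nrxn3 upstream, chr12:88308347-88308360, plus strand: tcacccctCCAGTAGAGGGCGCactcttgc
Tenm2 body, chr11:36526586-36526599, minus strand: caacacggCCACCAGAGGGCGCgaggtaca
Tenm3 downstream, chr8:48016707-48016720, minus strand: cattttgaCCACCAGGTGGCAGcagcaact
Tenm4 3' end, chr7:96914194-96914207, minus strand: agaggtggCCACCAGGTGGCGCtatgagtg
Tenm4 3' end, chr7:96915936-96915949, minus strand: catatcaaCCACTAGATGGCAGatcaggcc
All 6 pointed away from their boundary, that is, the motif read 5' to 3' led from the boundary outward. The share of matches with that direction over all boundaries is not given here, so the count is no trait of these genes. The sites before Nrxn2 and Nrxn3 thus pointed toward the gene, and those beyond Tenm4 pointed back into it. With 1 mismatch allowed, 8 of 10 body boundaries had a match within 20 kb, but so did 76.3% of all boundaries. At the strongest body boundary, that of Nrxn3, the 1 such match lay 5 kb before it and pointed away from it.
Nrxn3 body, chr12:89395710-89395723, minus strand: catgccaaCCACCAGAGGGCTGacattcct
Of the 17 matches with exactly 1 mismatch near member boundaries, 8 pointed away, 7 pointed toward the boundary and the rest lay inside its bin, and 5 lay wholly in soft-masked repeat sequence. None of the 6 exact sites lay in such sequence. The sets differ, since the 6 include sites at boundaries that flank Nrxn2, Nrxn3 and Tenm3. The 17 were sought only near boundaries at starts, bodies and 3' ends.

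The body boundaries of the members lay in sequence that resembled the rest of these genes. Their bins had a median GC content of 41.6% (range 35.9 to 47.96%), against 40.9% over all body bins of the members and 42.2% over all boundaries. The soft-masked share was 17.6% (10.8 to 39.8%), against 17.6% over all body bins of the members, 23.6% at body boundaries of other genes of 100 kb or more and 28.7% over all boundaries. DpnII sites, at which the library was cut, numbered 2.3 per kb at member body boundaries and 2.4 per kb over all boundaries. The Nrxn3 boundary of 1.52 had the lowest GC content of the 10, 35.9%, and the fewest DpnII sites, 1.2 per kb. The part of base composition or cutting frequency in the calls was not tested.

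Partner genes were taken from a list for each family. The teneurin list held latrophilin and Flrt genes, and direct binding was not checked for each entry. Of 19 neurexin partners, 4 had a boundary within 20 kb of the start (21.05%), near the 21.2% of all coding genes. Nxph3, a neurexophilin gene, had a Strong one of 2.16 at 20 kb. Lrrtm3 (0.414) and Lrrtm2 (0.387), which encode postsynaptic leucine-rich repeat partners, and Cask (0.371), a scaffold gene, had Weak ones at 0 to 5 kb. A boundary lay within 20 kb of the 3' end of 3 of the 19, or 15.8%, against 22.2% of all coding genes. Body boundaries were found in 2 of the 5 partners of 100 kb or more, against 30.7% of all coding genes of that length, with 2 Weak ones in Nlgn1, a neuroligin gene of 906 kb, and a Strong one of 1.21 in Cask. Of the 6 teneurin partners, the latrophilin genes Adgrl1 (0.748 at 5 kb) and Adgrl3 (0.636 at 15 kb) had Strong boundaries at the start, 2 of 6, while a Strong one was the nearest within 20 kb in 2986 of the 21755 coding genes. The other 4 partners had no boundary at the start. No body boundary was called in the 2 teneurin partners of 100 kb or more, of which Adgrl3 measures 805 kb.

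Other long genes shared the boundary pattern of each member except Tenm2. Likeness was the same class at the start and the 3' end, then the difference in counts of Strong and Weak body boundaries, then length, among 2489 coding genes in this 1 map. Nrxn3 shared its counts with 6 genes, the nearest in length being Astn2 (1024 kb), a neuronal adhesion gene, and Pard3b (1003 kb), a polarity gene. Tenm4 shared its with 5, among them Dlgap2 (751.8 kb), a postsynaptic scaffold gene. The 1 Strong body boundary of Tenm3 without boundaries at its ends was shared by 257 genes, with Cdk14 and Egfem1 closest in length, and the 1 Weak one of Nrxn2 by 232, with Gng12 and Rabgap1 closest. No gene had the pattern of Tenm2, whose classes at both ends were found in 45 genes, against 1437 for those of Nrxn2, Nrxn3 and Tenm3. The closest were 3 genes, among them Lsamp and Nkain3, which differed from it by 2 body boundaries.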

How the data were processed

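Hi-C libraries of 2 biological replicates were pooled by the authors into 1 contact matrix on GRCm38, on which boundaries were called, per the series design text. The deposited list gives 5 kb bins, a class and a strength, a score without a stated scale; caller, window and mapper are each not given in the sources used here. Gene records and transcripts came from GENCODE mouse release 21 and sequence from GRCm38.p6, both of the list's build (GRCm38, per the submitters' processing notes). Distances are between 5 kb bins. The longest coding transcript is the one with most coding bases. Of the paralogs only Tenm1 is reported here. Analyses used Python 3.11.15 and numpy 2.4.6, and the placement and motif functions were tested on simulated data. Named genes were the members, the X-linked teneurin, partners with the strongest boundary within 20 kb of the start or most body boundaries, the 2 genes most alike in pattern to each member (1 of those of Tenm4 is not reported here), and genes next to flanking boundaries. Members and lists were chosen with earlier results of these data known. Of the promoter windows, Nrxn3, Tenm2, Tenm3 and Tenm4 matched by symbol, 4 of 5 members. No statistical test was run, because the list has no values per replicate, and background shares are descriptions. Alternatives were other windows, stronger boundaries only, other transcript starts, other length classes and a motif mismatch.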

Additional observations from a re-analysis of the deposited data

How the results depend on the processing

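Of 35 alternative values, 14 stayed within 1.5 times the count or within the binomial interval of the share, 21 did not and 0 reversed. The count of members with a boundary at the start, 1 of 5, was 0 within 10 kb, with Strong boundaries only and in the top 25% of strengths. It was 2 within 50 kb and 5 with any annotated transcript start. The members have from 6 (Tenm2) to 15 (Nrxn2) distinct starts each, which raises the last count. Shares of all coding genes under these alternatives are not given here. Body boundaries numbered 10, and 4 with Strong ones only and 1 in the top 25%. At the 3' end the count of 2 was 0 within 10 kb. Body boundaries with a CTCF match rose from 1 to 8 with 1 mismatch, and those near an own transcript start fell from 6 to 3 within 10 kb. Members with a boundary in the middle of the record went from 5 to 3 with Strong boundaries only, 3 along the longest coding transcript and 1 in the top 25%, alternatives chosen after seeing the data. The share of genes with a lower body density was 97.2% for Nrxn2, and with Strong boundaries only 0%. It was 72.2% for Nrxn3 (84.2% with Strong boundaries, 45.4% among genes of 500 kb or more), 76.2% for Tenm2 (84.5 and 72.5%), 71.2% for Tenm3 (86.5 and 34.5%) and 78.1% for Tenm4 (86.0% with Strong boundaries). The alternatives use fewer boundaries, other windows or other genes by construction. No paired analysis was possible because boundaries were called once, on both replicates together, and for the same reason no replicate could be left out. Contact depth is unknown and limits which Weak boundaries could be called.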

Other observations

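The records of the members overlap other genes, some of which are given here with the distance of their start from a boundary. Tenm4 overlaps Mir708 and Mir6394, microRNA genes on the same strand, both in its first domain and 115 and 175 kb from the nearest boundary. It also overlaps the antisense genes Gm15414 and Gm15413, 110 and 25 kb from a boundary. The antisense genes of Tenm2, Gm12126 and Gm12127, start 55 and 60 kb from its Strong boundaries of 1.24 and 0.734. Gm19744, a non-coding gene that starts at the upstream end of Tenm3 on the opposite strand, is 270 kb from the nearest boundary. Genes were taken here from the annotation, without expression values.

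Tenm2 and Tenm3 lie near the paralogs Wwc1 and Wwc2, and in both places a Strong boundary lies between the middle of the teneurin and the start of its neighbour. How often other stretches of that length hold a Strong boundary is not given here, so the likeness was not tested. At Tenm2 there is a Strong boundary of 0.734 and, nearer to Wwc1, that of 1.24. The latter is inside the teneurin record and 45 kb from the start of Wwc1. That of Tenm3, of 0.970, is 195 kb beyond the teneurin record and 40 kb from the start of Wwc2, and the start of Dctd, a deoxycytidylate deaminase gene, lies between it and Tenm3. Tenm4 has a Strong boundary of 1.36 between itself and Nars2.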
